A study of Rattus norvegicus with 40 samples.

Results

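Aurkb, Asf1b, Mki67, Top2a and Cdk1, 5 genes of cell division and chromatin assembly, were followed through 4 brain regions of blast-exposed and sham-exposed rats. They are 5 of the 25958 gene identifiers in the deposited tables. They were found by symbol in the hippocampus table and joined by gene identifier to the tables of the other regions. Aurkb and Asf1b were chosen by their differences between blast and sham in these same libraries, and Mki67, Top2a and Cdk1 as genes of dividing cells. Their differences between blast and sham are therefore a description, whatever p-value stands beside them. Levels were tested between regions in the sham rats, which was not the contrast of the choice. The sham libraries are still part of that contrast, so for Aurkb and Asf1b these tests are not independent of the choice.

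RNA-seq libraries came from 4 regions dissected 12 months after exposure: hippocampus, amygdala, anterior cortex and cerebellum. The 8 groups were blast-exposed and sham rats in each of the 4 regions, with 5 libraries a group and 40 in all. The labels give no strain, sex, age or blast pressure, and they do not say that libraries come from separate animals, so p-values measure only the spread between these libraries. Each library title carries a number that recurs over the regions (blast 4, 8, 22 and 88 and the number shared by Hip_666, Amy_666, AC_666 and Cer666; sham 11, 13, 14, 15 and 33), except for 1 amygdala sham library whose column and title disagree and which is called unnumbered here.

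Aurkb encodes the kinase of the chromosomal passenger complex, which corrects kinetochore attachments and guides cytokinesis together with Incenp, survivin (Birc5) and borealin (Cdca8). Asf1b encodes a chaperone that hands histones H3 and H4 to the factors that build nucleosomes, and it is the copy tied to proliferation, while Asf1a is found in most cells. Mki67 encodes the Ki-67 protein that coats mitotic chromosomes, Top2a encodes the topoisomerase that untangles replicated DNA, and Cdk1 encodes the kinase that drives entry into mitosis. In the adult rodent brain, division is mostly that of progenitors of the dentate gyrus and the ventricle wall and of oligodendrocyte precursors. Transcripts of this kind are scarce in bulk tissue that is mostly non-dividing.

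The promoters are shown because these genes are known for a shared layout of cell cycle elements, and all 4 can be read side by side. Of the 5 genes, 4 matched an entry of the RefSeq promoter table (build GRCr8), all but Aurkb. Each sequence runs 5′ to 3′ on the gene's strand, from 250 bases before the start site, over 280 bases. Capitals mark the cell cycle homology region (CHR, TTTGAA) and the CCAAT box (CCAAT), searched on both strands, so that ATTGG and TTCAAA are the same motifs on the opposite strand.
Asf1b (chr19:41100323-41100602, minus strand): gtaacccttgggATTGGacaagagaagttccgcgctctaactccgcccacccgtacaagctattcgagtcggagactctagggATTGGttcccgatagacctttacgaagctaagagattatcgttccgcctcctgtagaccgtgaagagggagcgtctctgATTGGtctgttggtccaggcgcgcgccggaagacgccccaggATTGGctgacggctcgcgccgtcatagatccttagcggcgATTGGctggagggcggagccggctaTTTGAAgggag
Mki67 (chr1:199952564-199952843, minus strand): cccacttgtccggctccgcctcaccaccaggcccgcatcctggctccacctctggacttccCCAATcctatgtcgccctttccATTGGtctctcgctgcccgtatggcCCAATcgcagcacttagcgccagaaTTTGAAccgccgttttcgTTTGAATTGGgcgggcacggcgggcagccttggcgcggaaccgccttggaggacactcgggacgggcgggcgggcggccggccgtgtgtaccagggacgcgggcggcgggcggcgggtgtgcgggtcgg
Top2a (chr10:84473064-84473343, minus strand): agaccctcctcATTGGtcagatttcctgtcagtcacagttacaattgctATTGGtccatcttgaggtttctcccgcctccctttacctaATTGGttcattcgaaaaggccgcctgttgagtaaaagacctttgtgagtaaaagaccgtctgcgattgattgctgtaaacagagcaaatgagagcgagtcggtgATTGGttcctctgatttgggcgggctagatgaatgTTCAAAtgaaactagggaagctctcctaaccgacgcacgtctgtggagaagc
Cdk1 (chr20:19265043-19265322, plus strand): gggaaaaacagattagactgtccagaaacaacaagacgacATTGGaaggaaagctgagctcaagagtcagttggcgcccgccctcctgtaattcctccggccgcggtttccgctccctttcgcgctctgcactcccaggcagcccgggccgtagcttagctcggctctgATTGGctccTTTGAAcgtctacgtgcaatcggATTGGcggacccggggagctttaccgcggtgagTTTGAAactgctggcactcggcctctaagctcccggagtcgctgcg
All 4 promoters hold both motifs. Asf1b has 1 CHR and 5 CCAAT boxes, Top2a 1 and 4, Mki67 2 and 4, and Cdk1 2 and 3. In Mki67 a CHR and a CCAAT box share 1 base. Among 33469 rat promoters of 300 bases, 18.3% hold a CHR and 37.5% a CCAAT box. In the gene lists used below, a CHR stands in 23 of 34 promoters of kinetochore and spindle genes, 10 of 18 of cyclins and mitotic kinases, 5 of 12 of the chromosomal passenger complex and its partners, 4 of 21 of histone chaperones and 3 of 31 of DNA replication genes. A CHR also stands in 10 of 15 promoters of the chromosome condensation list, which holds Mki67 and Top2a, and in 7 of 20 of cell cycle regulators. None of the 4 holds an E2F site (TTTCCCGC, TTTGGCGC or TTCCCGCC on either strand), which 2.90% of promoters hold, and this says only that these letters are not in this window.

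The 40 libraries held between 11268097 and 37128383 counts each, the extremes both in the anterior cortex. Levels below are CPM, read counts relative to the library's total after TMM scaling. The labelled regions were checked on a few genes: the cerebellar granule cell gene Gabra6 was at 918.2 to 1003 CPM in the cerebellum and at most at 1.12 CPM elsewhere, and the dentate gyrus gene C1ql2 at 129.2 to 251.2 CPM in the hippocampus and at most at 25.2 CPM elsewhere. Of 2 genes of amygdala nuclei looked up, Rspo2 (median 20.8 CPM) and Prkcd (median 19.5 CPM), neither was highest in the amygdala. Hippocampus libraries 8, 11 and Hip_666 stood apart by high choroid plexus genes, and anterior cortex libraries 8, 11, 13 and 15 by fewer genes with a count (16577 to 17845 against 18744 to 20748).

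The first question was where in the brain the 5 genes are expressed in sham rats. Aurkb and Mki67 were highest in the hippocampus, Top2a and Asf1b in the anterior cortex, and Cdk1 was near its counting limit in all 4 regions. Aurkb, Mki67, Top2a and Asf1b passed the filter on low counts in the model of the 20 sham libraries, and each differed between regions (edgeR, adjusted p of 1.33e-05 for Aurkb, 8.61e-06 for Mki67, 2.31e-06 for Top2a and 0.0177 for Asf1b). Of the 15695 genes tested, 74.5% did so. For Asf1b the call was lost with the replicate block (adjusted p = 0.0591) and without library number 11 (0.142) or 13 (0.136).

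Aurkb had a mean of 11.2 CPM ± 5.30 (SD, n = 5) in the sham hippocampus, 6.73 ± 2.92 in the amygdala, 2.58 ± 0.620 in the cerebellum and 1.58 ± 1.10 in the anterior cortex. The log2 difference of hippocampus over anterior cortex was 2.81 ± 0.43 (SE, edgeR adjusted p = 3.00e-05), and that of hippocampus over cerebellum 2.12 ± 0.41 (edgeR adjusted p = 0.000153). The amygdala also stood above the cerebellum by 1.39 ± 0.40 (edgeR adjusted p = 0.00561). The first and the last pair of neighbours in this order were not told apart: hippocampus over amygdala was 0.73 ± 0.38 (edgeR adjusted p = 0.207; 1.22 and adjusted p = 0.0171 without number 33), and anterior cortex minus cerebellum was -0.69 ± 0.43 (edgeR adjusted p = 0.176; -1.13 and 0.0167 without number 33). In the sham hippocampus the 5 libraries ran from 4.43 to 16.8 CPM, with a variance 34.4 times that expected from counting alone.

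Mki67, like Aurkb, was highest in the hippocampus. It had 11.6 CPM ± 2.89 (SD, n = 5) in the sham hippocampus, 5.82 ± 1.55 in the amygdala, 5.51 ± 1.72 in the anterior cortex and 3.24 ± 0.666 in the cerebellum. The hippocampus exceeded the cerebellum by 1.84 ± 0.25 on the log2 scale and the amygdala by 0.99 ± 0.24 (edgeR adjusted p = 1.77e-06 and 0.00434). Amygdala and anterior cortex differed by 0.06 ± 0.24 (edgeR adjusted p = 0.872), and both stood above the cerebellum (0.85 ± 0.24 and 0.79 ± 0.25, edgeR adjusted p = 0.00522 and 0.00879). The first of these calls was lost without number 13 (edgeR adjusted p = 0.0511) and the second without number 11 (0.104). Of all genes tested in sham libraries, the share called was 20.7% for hippocampus against amygdala, 43.6% for hippocampus against anterior cortex, 53.3% for hippocampus against cerebellum, 21.8% for amygdala against anterior cortex, 58.5% for amygdala against cerebellum and 60.2% for anterior cortex against cerebellum.

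Top2a was highest in the anterior cortex. Its 5 sham libraries there held 3.02, 3.03, 1.85, 2.06 and 3.62 CPM (numbers 11, 13, 14, 15 and 33), above all sham libraries of the other regions, of which the highest held 1.10 CPM. The anterior cortex exceeded the cerebellum by 2.90 ± 0.38 on the log2 scale (edgeR adjusted p = 1.52e-06). Hippocampus minus anterior cortex was -1.86 ± 0.36, and amygdala minus anterior cortex -1.97 ± 0.36 (edgeR adjusted p = 0.000333 and 0.000696). Hippocampus and amygdala differed by 0.11 ± 0.38 (edgeR adjusted p = 0.888). Both were above the cerebellum (1.04 ± 0.40 and 0.94 ± 0.40, edgeR adjusted p = 0.0310 and 0.0495). These last calls were lost when a library number was left out, the first without 13, 15 or 33 (edgeR adjusted p = 0.0770 to 0.215) and the second without 13, 14, 15 or 33 (0.0660 to 0.237), with the replicate block (0.124) and with no filter on low counts (0.0749).

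Asf1b also peaked in the anterior cortex, with 2.78 CPM ± 1.40 (SD, n = 5) in sham rats against 1.5 ± 0.646 in the hippocampus, 1.32 ± 0.566 in the cerebellum and 1.10 ± 0.398 in the amygdala. Amygdala minus anterior cortex was -1.34 ± 0.40 (SE, edgeR adjusted p = 0.0222), and anterior cortex minus cerebellum 1.09 ± 0.40 (edgeR adjusted p = 0.0223). The first call was lost with the replicate block (edgeR adjusted p = 0.0946) and without number 11, 13 or 15 (0.0511 to 0.143), and the second without number 11 or 13 (0.0924 to 0.179). Anterior cortex libraries 11 and 13, with the highest sham values (4.87 and 3.55 CPM), are among those that stood apart by fewer genes with a count. Library 15, which also stood apart, held the lowest sham value there. Libraries 14 and 33, which did not, held 1.98 CPM each, within the sham hippocampus range (0.701 to 2.38 CPM). The part of library quality in the Asf1b level of the anterior cortex was not tested. Hippocampus minus anterior cortex was -0.92 ± 0.39 and was not called (edgeR adjusted p = 0.0655; 0.0410 without number 33). The other 3 pairs of regions were not told apart. Cdk1 gave 0 to 9 counts in each of the 20 sham libraries and passed the filter in no region. It was at 0 in the unnumbered amygdala library and in anterior cortex library 15, and a count of 0 allows up to 0.229 and 0.281 CPM there (3 counts, counting error only).

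**Figure D1:**
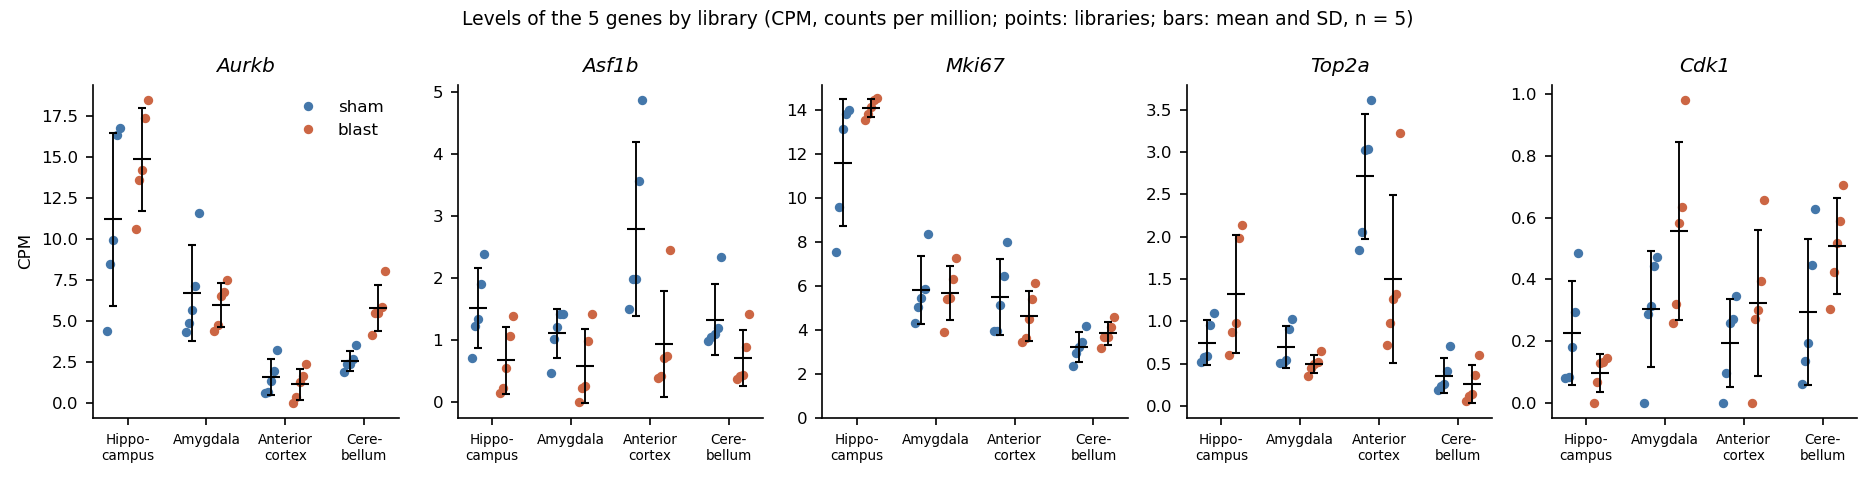
CPM of Aurkb, Asf1b, Mki67, Top2a and Cdk1 on separate linear axes, by region, with 1 point a library and black bars for the mean and SD of 5 libraries. Aurkb and Mki67 are highest in the hippocampus and Top2a and Asf1b in the anterior cortex of sham rats, and in the cerebellum the 5 blast libraries of Aurkb (4.15 to 8.04 CPM) lie above the 5 sham libraries (1.89 to 3.56 CPM).

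In blast libraries, as in the sham libraries above, the levels of Aurkb and Asf1b are among the values that chose these genes. Their order in blast libraries is given as a description. Aurkb was again highest in the hippocampus and lowest in the anterior cortex, with a log2 difference of 0.03 ± 0.37 (SE) for amygdala minus cerebellum and of -2.28 ± 0.41 for anterior cortex minus cerebellum. Mki67 in the hippocampus exceeded the amygdala by 1.29 ± 0.17, the anterior cortex by 1.58 ± 0.17 and the cerebellum by 1.82 ± 0.17 (edgeR adjusted p = 4.81e-06, 2.63e-07 and 8.21e-09). For Top2a, hippocampus minus anterior cortex was -0.22 ± 0.46 (edgeR adjusted p = 0.749), and anterior cortex minus cerebellum was 2.49 ± 0.53 (edgeR adjusted p = 0.000358). For Asf1b, amygdala minus anterior cortex was -0.67 ± 0.75 and anterior cortex minus cerebellum 0.40 ± 0.74. Of all genes, 76.4% were called as differing between regions in blast libraries. The shares of all genes called were 28.5% for hippocampus against amygdala, 36% for hippocampus against anterior cortex, 60.9% for hippocampus against cerebellum, 25.1% for amygdala against anterior cortex, 64.3% for amygdala against cerebellum and 63% for anterior cortex against cerebellum. Whether these orders differ between blast and sham is the question of the interaction test below.

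The partners and copies of these genes were set beside them per length, as CPM per kilobase of the tables' gene length. Aurkb was at 2.55 CPM per kilobase in the sham hippocampus, 1.53 in the amygdala, 0.585 in the cerebellum and 0.359 in the anterior cortex. Incenp, the scaffold that Aurkb binds, was lowest in the hippocampus, with 2.93 in the hippocampus, 3.02 in the amygdala, 5.45 in the anterior cortex and 12.4 in the cerebellum. Birc5, which encodes survivin, was at 0.639 to 2.18 and Cdca8, which encodes borealin, at 0.765 to 1.45 CPM per kilobase over the 4 regions. Of the other Aurora kinases, Aurka, the kinase of spindle poles, lay between 1.64 and 1.88, and Aurkc, the form best known from meiosis, between 11.6 and 19.7.

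The widely expressed copies were above the members tied to proliferation in every region. Asf1a was at 6.68 to 11.9 CPM per kilobase and Asf1b at 0.694 to 1.75. Top2b, the topoisomerase of non-dividing cells, was at 19.3 to 30.7 and Top2a at 0.0642 to 0.486. Mki67 lay between 0.328 and 1.18 and Cdk1 between 0.138 and 0.215 CPM per kilobase. These are levels in sham libraries, and differences between them were not tested.

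The comparison the study was built for is blast against sham in each region. Of the members, edgeR called none in any region, as it called 0% of all genes in each (15059, 15280, 14918 and 14769 genes tested in hippocampus, amygdala, anterior cortex and cerebellum). At an unadjusted p under 0.05 there were 284, 1325, 644 and 683 genes, and DESeq2 called 1, 20, 0 and 5. Genes whose lowest blast library exceeded the highest sham library were 0.113%, 0.759%, 0.382% and 0.339% of those tested in the 4 regions, and those with the reverse were 0.139%, 0.746%, 0.248% and 0.42%.

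Aurkb stood out in the cerebellum. Its blast libraries 4, 8, 22, 88 and Cer666 held 5.52, 5.47, 8.04, 5.88 and 4.15 CPM, from 56 to 109 counts. The sham libraries 11, 13, 14, 15 and 33 held 2.37, 3.56, 2.40, 1.89 and 2.67 CPM, from 29 to 58 counts. All 5 blast libraries lay above all 5 sham libraries, and the lowest blast library, Cer666, was the one nearest to the sham range. The mean was 5.81 CPM ± 1.41 (SD, n = 5) in blast and 2.58 ± 0.620 in sham, a log2 fold change of 1.18 ± 0.21 (SE), and it stayed between 1.03 and 1.33 when any 1 library was left out. In bulk tissue more cells that express a gene and more RNA per cell cannot be told apart. The tools disagreed on the call. By edgeR the adjusted p was 0.564, though no gene with a higher level in blast had a smaller p. DESeq2 gave an adjusted p of 0.00228, with a log2 fold change of 1.18 as by edgeR. The authors' deposited table gives an adjusted p of 0.00442 with a log2 fold change of 0.310. No source used here says how the authors' fold changes were estimated, so their sizes cannot be set against those fitted here. The cerebellum values chose the gene and are no independent test.

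In the hippocampus, Aurkb held 14.2, 18.5, 17.4, 13.6 and 10.6 CPM in blast libraries 4, 8, 22, 88 and Hip_666, against 9.96, 16.4, 8.51, 16.8 and 4.43 CPM in sham libraries 11, 13, 14, 15 and 33. The groups overlapped, with 2 blast libraries above all sham libraries, and the log2 fold change was 0.40 ± 0.31 (SE). In the amygdala the blast libraries held 7.50, 6.78, 6.52, 4.40 and 4.76 CPM in the same order, against 4.89, 4.31, 5.68 and 11.6 CPM in sham libraries 11, 14, 15 and 33 and 7.17 CPM in the unnumbered one. They lay within the range of the sham libraries, and the log2 fold change of -0.17 ± 0.26 turned to 0.12 without sham library 33. In the anterior cortex the blast libraries held 2.40, 0, 1.63, 1.31 and 0.394 CPM, against 1.36, 1.99, 0.616, 0.655 and 3.27 CPM in sham libraries, with a log2 fold change of -0.45 ± 0.74. The 0 of library 8 allows up to 0.271 CPM (3 counts). Aurkb was thus higher in blast by mean in 2 regions and lower in 2.

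Asf1b had the lower mean in blast in all 4 regions. In the anterior cortex, blast libraries 4, 8, 22, 88 and AC_666 held 0.375, 2.44, 0.732, 0.411 and 0.71 CPM, and sham libraries 11, 13, 14, 15 and 33 held 4.87, 3.55, 1.98, 1.5 and 1.98 CPM. In the anterior cortex 4 of 5 blast libraries lay below every sham library, the exception being library 8. The log2 fold change was -1.60 ± 0.56 (SE). It was -1.78 ± 0.44 without the 4 libraries that stood apart. That fit leaves out blast library 8 and sham libraries 11, 13 and 15, so that only 14 and 33 remain as sham. Without blast library 8 alone, the highest blast value, the log2 fold change was -2.30.

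In the cerebellum, Asf1b held 0.364, 0.412, 0.885, 0.424 and 1.41 CPM in blast libraries 4, 8, 22, 88 and Cer666, against 1.09, 1.04, 2.33, 0.975 and 1.18 CPM in sham libraries 11, 13, 14, 15 and 33. Again 4 of 5 blast libraries lay below every sham library, all but Cer666, and the log2 fold change was -0.94 ± 0.40. In the hippocampus the blast libraries held 0.219, 0.536, 1.05, 0.134 and 1.38 CPM, against 1.89, 1.22, 0.701, 1.33 and 2.38 CPM, with 3 blast libraries below every sham library and a log2 fold change of -1.14 ± 0.55. In the amygdala they held 0, 0.212, 0.982, 0.259 and 1.41 CPM, against 1.42, 1.41, 1.01 and 1.21 CPM in the numbered sham libraries and 0.458 CPM in the unnumbered one, with a log2 fold change of -0.93 ± 0.62. The 0 of amygdala library 4 allows up to 0.194 CPM (3 counts). These levels rest on few reads: blast groups summed to 43 to 73 counts over 5 libraries and sham groups to 75 to 159. The authors' deposited tables give Asf1b log2 fold changes of -0.178, -0.0763, -0.489 and -0.0754 in hippocampus, amygdala, anterior cortex and cerebellum. How the deposited values were estimated is not named in the sources used here, so their sizes cannot be set against those above.

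**Figure D2:**
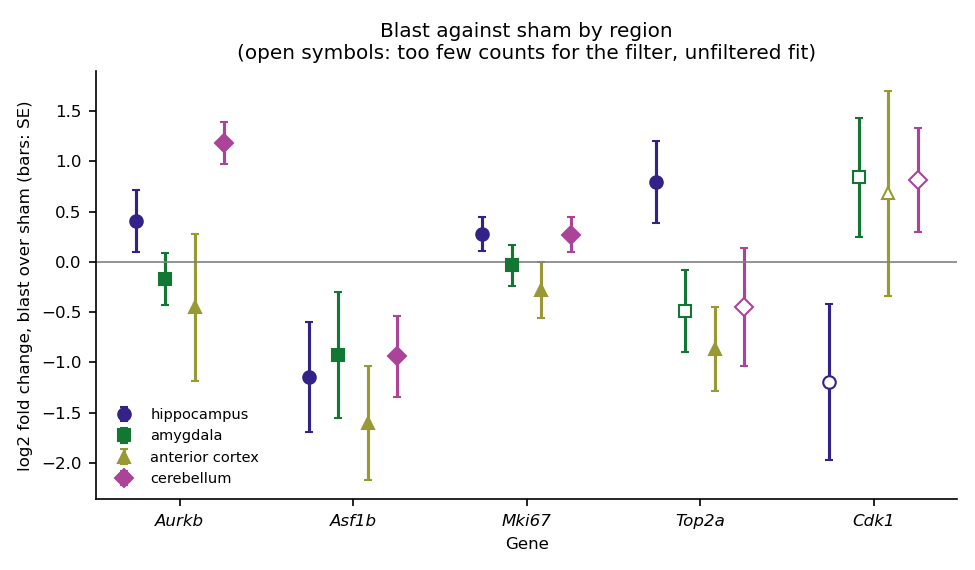
Log2 fold change of blast over sham (bars: SE) for each gene in hippocampus, amygdala, anterior cortex and cerebellum, with open symbols where counts were too low for the filter and an unfiltered fit was used. Asf1b lies below 0 in all 4 regions (-0.93 to -1.60), Aurkb stands out in the cerebellum (1.18), and the other genes lie on both sides of 0.

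The lowest values of Asf1b recurred at the same title numbers across regions. Blast number 4 had 0 to 6 counts in its 4 libraries (mean 0.239 CPM ± 0.175, SD over 4 regions) and number 88 had 2 to 7 (0.307 ± 0.137). Number 8 was at 0.536 CPM or lower in 3 regions and at 2.44 in the anterior cortex. Number 22 (0.912 ± 0.138) and the libraries Hip_666, Amy_666, AC_666 and Cer666 (1.23 ± 0.346) were nearer to the sham libraries, whose means by number ran from 1.20 to 2.32 CPM. A test of differences between title numbers within treatment, run after these values were seen, gave an edgeR F of 3.09 for Asf1b (unadjusted p = 0.0125) and no call over all genes (adjusted p = 0.383, where 1.28% of 16378 genes were called). The labels do not say what a number stands for.

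**Figure D3:**
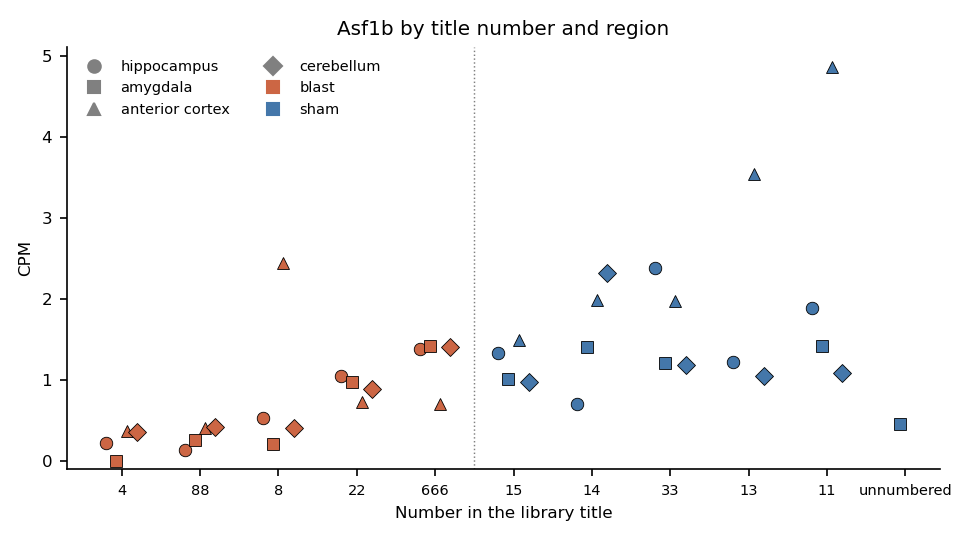
Asf1b in CPM for each library, by the number in its title (blast left of the dotted line, sham right), with a symbol for each region. Blast numbers 4 and 88 are at or under 0.424 CPM in all 4 regions, while number 22 reaches 1.05 CPM and Amy_666 and Cer666 1.41 CPM.

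Mki67, the standard mark of dividing cells, did not separate blast from sham libraries in any region. In the hippocampus it was at 13.8, 13.5, 14.4, 14.6 and 14.1 CPM in blast libraries 4, 8, 22, 88 and Hip_666. Sham libraries 11, 13, 14, 15 and 33 there held 14, 13.8, 7.54, 9.61 and 13.1 CPM. The blast libraries formed a narrow band (SD of 0.417 CPM against 2.89), with 3 of 5 above every sham library and the other 2 within the sham range. The log2 fold change was 0.28 ± 0.17 (SE). The variance of the blast libraries was 0.172 times that expected from counting alone, below what counting gives on average, and that of the sham libraries 11.7 times. The difference in spread was not tested.

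In the amygdala, Mki67 was at 5.43, 7.27, 3.93, 6.35 and 5.47 CPM in blast libraries 4, 8, 22, 88 and Amy_666, against 5.05, 4.31, 5.90 and 5.47 CPM in sham libraries 11, 14, 15 and 33 and 8.39 CPM in the unnumbered one. In the anterior cortex blast libraries 4, 8, 22, 88 and AC_666 held 5.41, 4.52, 3.66, 6.16 and 3.47 CPM, against 7.99, 3.98, 3.97, 6.46 and 5.17 CPM in sham libraries 11, 13, 14, 15 and 33. In the cerebellum the blast libraries held 3.21, 4.59, 4.13, 3.70 and 3.70 CPM in the same order, against 2.37, 2.95, 4.17, 3.25 and 3.46 CPM. Blast and sham overlapped in each of these regions, with log2 fold changes of -0.03 ± 0.20 (SE) in the amygdala, -0.28 ± 0.28 in the anterior cortex and 0.27 ± 0.17 in the cerebellum.

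Top2a could be tested in the hippocampus and the anterior cortex. In the hippocampus it held 0.874, 1.99, 0.985, 0.604 and 2.14 CPM in blast libraries 4, 8, 22, 88 and Hip_666, against 0.515, 1.10, 0.593, 0.961 and 0.574 CPM in sham libraries 11, 13, 14, 15 and 33. Libraries 8 and Hip_666 lay above all sham libraries, and both are among those rich in choroid plexus genes. The log2 fold change of 0.79 ± 0.41 (SE) was 0.02 ± 0.42 without them and without sham library 11, the third such library. Libraries 8 and Hip_666 hold the highest blast values and library 11 the lowest sham value, so leaving them out lowers the difference in any case. The part of choroid plexus tissue in the Top2a values was not tested. In the anterior cortex, Top2a held 3.23, 0.723, 1.33, 0.985 and 1.26 CPM in blast libraries 4, 8, 22, 88 and AC_666, so that 4 of 5 lay below every sham library (1.85 to 3.62 CPM), with a log2 fold change of -0.87 ± 0.42.

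Cdk1 and, in 2 regions, Top2a were too low for the filter. Cdk1 summed to 7, 41, 27 and 39 counts over the 5 blast libraries of hippocampus, amygdala, anterior cortex and cerebellum, against 18, 21, 12 and 21 in sham. In the hippocampus the blast libraries held 0 to 2 and the sham libraries 1 to 9 counts, and in the cerebellum 5 to 12 and 1 to 8. The groups overlapped in each region, and the unfiltered log2 fold changes were -1.20 ± 0.78 (SE), 0.84 ± 0.59, 0.68 ± 1.02 and 0.81 ± 0.51. None was called (edgeR adjusted p of 0.705 to 0.914 with no filter). Top2a gave 5 to 13 counts in each amygdala library and 1 to 11 in each cerebellum library, with unfiltered log2 fold changes of -0.49 ± 0.41 and -0.45 ± 0.59.

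The members' blast differences were also compared between regions. In the model of all 40 libraries the region by treatment interaction had an unadjusted p of 0.0586 for Aurkb, 0.0491 for Top2a, 0.211 for Mki67 and 0.834 for Asf1b, and edgeR called none (0% of 16378 genes; 779 at an unadjusted p under 0.05). The mean over the 4 regions, fitted by limma with the title number as a block, was -1.49 ± 0.31 (SE) for Asf1b, with an adjusted p of 0.0778 where 1 gene, none of the 5, was called (0.00611% of those tested). By edgeR without the block it was -1.16 ± 0.30. With the block, leaving out Hip_666, Amy_666, AC_666 and Cer666 gave -1.79 (limma adjusted p = 0.0153) and leaving out sham number 14 gave -1.51 (0.0445). The mean was 0.19 ± 0.25 for Aurkb, 0.07 ± 0.11 for Mki67 and -0.35 ± 0.23 for Top2a. These use the contrast by which Aurkb and Asf1b were chosen.

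Among other genes of the cell cycle, 173 were taken from 7 lists (passenger complex and its partners, cyclins and mitotic kinases, histone chaperones, DNA replication, chromosome condensation, kinetochore and spindle, and cell cycle regulators). None was called in any region. In the hippocampus 66 of 143 tested genes were higher in blast and 77 lower, in the amygdala 79 and 61 of 140, in the anterior cortex 71 and 72 of 143, and in the cerebellum 71 and 70 of 141. Their median log2 fold change lay between -0.014 and 0.016, beside medians of all genes between -0.0039 and 0.0022. At an unadjusted p under 0.05 stood 1.40%, 3.57%, 4.20% and 2.84% of them, beside 1.89%, 8.67%, 4.32% and 4.62% of all genes.

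Of all genes tested, 7373 of 15059, 7595 of 15280, 7458 of 14918 and 7548 of 14769 were higher in blast (hippocampus, amygdala, anterior cortex, cerebellum). By list, the passenger complex and its partners were higher in blast in 11 of 11 tested genes in the cerebellum, with a median log2 fold change of 0.09. These 11 include Aurkb, which was chosen by this difference and was the one at an unadjusted p under 0.05. In the other regions 5, 6 and 6 of 10 were higher (hippocampus, amygdala, anterior cortex). The histone chaperones, with Asf1b among them, were lower in 16 of 22 in the anterior cortex (median -0.19) and in 16 of 22 in the cerebellum (median -0.02), and in 11 of 22 in the hippocampus and in the amygdala. In the hippocampus Tlk1, a kinase that acts on the Asf1 proteins, had a log2 fold change of 0.39 ± 0.16 (SE), and in the amygdala Rbbp4, a histone-binding subunit of several chromatin complexes, had -0.26 ± 0.12. Cyclins and mitotic kinases were higher, in the order hippocampus, amygdala, anterior cortex and cerebellum, in 6 of 19, 12 of 19, 11 of 18 and 13 of 18. In the cerebellum Plk1, the polo kinase of mitosis, had a log2 fold change of 0.47 ± 0.21 (SE), and in the anterior cortex Ccne1, cyclin E1, had 0.63 ± 0.26. Cks1b, a small subunit of cyclin-dependent kinases, had 0.47 ± 0.16 in the amygdala.

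Genes of DNA replication were higher, in the same order of regions, in 13 of 29, 19 of 29, 13 of 29 and 17 of 29. Tyms, thymidylate synthase, had a log2 fold change of 0.57 ± 0.23 in the hippocampus, and in the anterior cortex Rfc4, a subunit of the clamp loader, had 0.45 ± 0.19 and Mcm5, a subunit of the replicative helicase, -0.70 ± 0.31. Of the condensation list, 9 of 14, 2 of 13, 6 of 15 and 4 of 13 were higher, with Ncapg, a condensin subunit, at -0.73 ± 0.23 in the anterior cortex and Kif4a, a chromosome-bound kinesin, at -0.56 ± 0.20 in the cerebellum. Ncaph2, a subunit of condensin II, was at -0.12 ± 0.06 in the amygdala. Kinetochore and spindle genes were higher in 9 of 24, 12 of 22, 13 of 24 and 8 of 23, with Cit, the citron kinase of cytokinesis, at -0.23 ± 0.07 in the amygdala. Regulators of the cycle were higher in 16 of 29, 17 of 28, 16 of 29 and 14 of 28, with Myc, a growth factor response gene, at 0.81 ± 0.22 in the amygdala and Cdkn1a, which encodes the inhibitor p21, at 0.58 ± 0.20 in the cerebellum. None of these genes was called by edgeR.

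Markers of neural progenitors and newborn neurons and of oligodendrocyte precursors were set beside these counts. The first list mixes progenitor genes with genes of neurons, so it does not mark dividing cells alone. Its summed level was highest in the cerebellum, with a median of 1115 CPM in sham libraries against 453.5 CPM in the hippocampus. Neural progenitor and newborn neuron genes were higher in blast in 8 of 15, 11 of 15, 8 of 15 and 5 of 11 tested, and their summed level overlapped between groups (411.9 to 512.8 CPM in sham and 431.1 to 478.2 CPM in blast hippocampus). Oligodendrocyte precursor genes were lower in blast in 10 of 10 in the amygdala, 9 of 10 in the anterior cortex and 9 of 10 in the cerebellum, with medians of -0.10, -0.11 and -0.11, and higher in 8 of 10 in the hippocampus (median 0.08). None was called. Those at an unadjusted p under 0.05 with the smallest p of their list were Neurog2 in the hippocampus (log2 fold change -0.63 ± 0.26, SE), Neurod1 in the amygdala (0.30 ± 0.12) and Sox11 in the anterior cortex (-0.73 ± 0.33) of the first list, and Olig1 in the amygdala (-0.16 ± 0.06) and Vcan in the cerebellum (-0.16 ± 0.06) of the second. Their part in the values of the 5 genes was not tested.

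The genes nearest to Aurkb across libraries were none of those in the lists of cell cycle genes. For each gene, log2 CPM was taken relative to the mean of its region and treatment group, and Pearson's r with each of 15298 genes was computed over the 40 libraries, which differ in depth and dissection. It is a description, since genes of one library share that library. The 5 closest to Aurkb were Dnai1 (r = 0.82), Dlec1 (0.81), AC128059.4 (0.80), Tnnt1 (0.78) and Odf3b (0.76). Dnai1 encodes an arm protein of ciliary dynein, and Dlec1 and Odf3b are also known from cilia or flagella. Within single regions r was 0.81, -0.18, 0.90 and 0.73 for Dnai1 and 0.80, 0.54, 0.80 and 0.86 for Odf3b (hippocampus, amygdala, anterior cortex, cerebellum, 10 libraries each).

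The score of 9 ependyma genes, those of the ciliated lining of the ventricles, had an r of 0.73 with Aurkb over the 40 libraries, the highest among the 17 lists compared, and 9 of 9 genes had an r above 0. Within regions it was 0.49 in the hippocampus, 0.74 in the amygdala, 0.92 in the anterior cortex and 0.77 in the cerebellum. Without anterior cortex libraries 4 and 8 of blast, the farthest from the median, r was 0.58 over 38 libraries. For the 9 partners of the passenger complex r was 0.30, and 4 of 9 had an r above 0. Scores of other cell cycle lists had an r of 0.55 (kinetochore and spindle, 15 of 25 genes above 0), 0.54 (cyclins and mitotic kinases, 13 of 18) and 0.47 (DNA replication, 16 of 29) over the 40 libraries. The ependyma score was also the list with the highest r for Top2a (0.49, 9 of 9 genes above 0) and Mki67 (0.24, 8 of 9). For Asf1b its r was -0.19 (1 of 9). Within regions the r of Top2a with it was 0.59, -0.27, 0.89 and 0.10 (hippocampus, amygdala, anterior cortex, cerebellum). With each of the 7 lists of cell cycle genes the r of Mki67 over the 40 libraries was below 0. It ran from -0.48 (DNA replication, 10 of 29 genes above 0) to -0.034 (histone chaperones, 8 of 22). Among the members themselves r was 0.40 between Aurkb and Top2a, 0.09 between Aurkb and Mki67 and -0.34 between Aurkb and Asf1b.

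**Figure D4:**
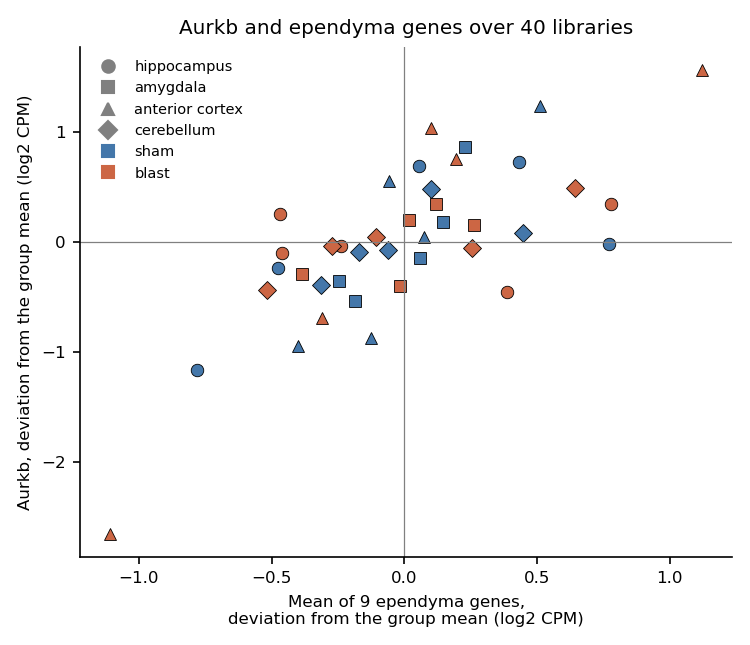
Aurkb against the mean of 9 ependyma genes in 40 libraries, each as deviation from its region and treatment mean in log2 CPM (symbols: regions; colours: treatment). The points climb from lower left to upper right (r = 0.73), and the outermost 2 are anterior cortex libraries 8 and 4 of blast (r = 0.58 without them).

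Ependyma genes were also higher in blast in the cerebellum by their means. Of the 9, 8 passed the filter, and 8 of 8 were higher in blast, with log2 fold changes from 0.39 to 1.15 (median 0.62). None was called, and 6 had an unadjusted p under 0.05. Their summed level was 27.4 to 67.0 CPM in blast and 19.6 to 36.6 CPM in sham libraries, and none was at 0 in all libraries of a group. Cfap65, a gene of the ciliary axoneme, had the smallest p, with 4.62 CPM ± 2.52 (SD, n = 5) in blast and 2.10 ± 0.729 in sham. In the hippocampus 9 of 9 were higher (median 0.63; summed 91.3 to 240.4 CPM in blast, 45.8 to 150 CPM in sham), in the amygdala 1 of 9 (median -0.11) and in the anterior cortex 3 of 8 (median -0.19).

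Other markers of tissue at the brain's surfaces also had higher means in the blast cerebellum, and none was called. Meningeal fibroblast genes were higher in blast in 10 of 10 (median 0.82; summed 108.3 to 318.9 CPM in blast, 38.6 to 176.4 CPM in sham), and choroid plexus genes in 8 of 8 (median 1.72; summed 46.6 to 2385 CPM in blast, 42.9 to 1091 CPM in sham). By edgeR, 5 of these meningeal and 0 of these choroid plexus genes had an unadjusted p under 0.05 in the cerebellum. In the hippocampus 10 of 10 meningeal and 9 of 9 choroid plexus genes were higher (medians 0.32 and 1.55). In the amygdala 8 of 10 and 1 of 9 were higher (0.18 and -0.75), and in the anterior cortex 1 of 10 and 1 of 4 (-0.15 and -0.82). The r of Aurkb with the scores of these lists over 40 libraries was 0.27 and 0.17. In the cerebellum, microglia genes were higher in 6 of 10, endothelial and pericyte genes in 6 of 8, blood genes in 5 of 5, leukocyte genes in 2 of 4 and neuron genes in 2 of 6. The part of any of these cell types in the Aurkb difference was not tested.

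Among the genes closest to Asf1b were Mpp7 (r = 0.65), RGD1309748 (0.64), Smg6 (0.59) and Zfp467 (0.58). Mpp7 encodes a scaffold of cell junctions and Smg6 a nuclease of nonsense-mediated decay. None of these 4 is in the lists of cell cycle genes. Mpp7 had an r of 0.86, 0.62 and 0.86 in hippocampus, amygdala and anterior cortex and of -0.81 in the cerebellum. The log2 fold changes of these 4 genes, blast over sham, ran from -0.28 to 0.55 over the 4 regions, and none was called. The score of the other histone chaperones (21 genes) had an r of 0.08 with Asf1b.

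Mki67 lay closest to Tanc1 (r = 0.65), Zbtb20 (0.62), Tmc7 (0.62), Greb1l (0.59) and Cyfip1 (0.59). Zbtb20 is a transcription factor known from hippocampal neurons and astrocytes, and Tanc1 a scaffold of synapses. Top2a lay closest to Zbtb7c (r = 0.58), Tmem185b (0.56), Gaa (0.54), Serpinh1 (0.52) and Slc35a3 (0.52), and r between Mki67 and Top2a was 0.04. Cdk1 had a mean count too low for this comparison.

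Last, the genes beside Aurkb and Asf1b were looked up. In the tables' coordinates, for which the sources used here name no build, Aurkb (ENSRNOG00000005659) lies on chromosome 10 from 55626741 to 55634991 on the plus strand, with a gene length of 4404 bases. Asf1b (ENSRNOG00000005115) lies on chromosome 19 from 25077918 to 25092491 on the plus strand. Mki67 (ENSRNOG00000028137) lies on chromosome 1 from 207993895 to 208020454 and Top2a (ENSRNOG00000053047) on chromosome 10 from 86901007 to 86932154, both on the minus strand. Cdk1 (ENSRNOG00000000632) lies on chromosome 20 from 20576377 to 20591549 on the plus strand. None of the 5 overlaps another gene model of the tables. In the cerebellum the neighbours of Aurkb on either side, Ctc1 and Borcs6, had log2 fold changes of -0.0045 ± 0.048 (SE) and 0.05 ± 0.09, against 1.18 for Aurkb. Prkaca, the next gene after Asf1b, had log2 fold changes of -0.08 ± 0.07, -0.01 ± 0.07, 0.23 ± 0.13 and -0.05 ± 0.04 in hippocampus, amygdala, anterior cortex and cerebellum.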

How the data were processed

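Reads of 40 libraries were handled with CASAVA, per the submitters' processing notes; no source used here names the aligner, the counter, the annotation or the build. Per the file headers, the deposited tables give unnormalised read counts for each gene, with the authors' own log2 fold changes and p-values, named as theirs where printed, and a gene length in bases. Everything else was computed from the counts. Genes were joined by identifier, and no count column was left without a group. Library totals (11268097 to 37128383) bound counting error only.

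Blast was compared with sham in each region by edgeR 4.0.16 in R 4.3.3 (filterByExpr with a minimum count of 10, TMM, two-sided quasi-likelihood F test, Benjamini-Hochberg adjustment over all genes tested, called under 0.05). Levels between regions were tested by edgeR in models of 4 region groups, fitted apart for sham and for blast libraries, the interaction in a model of 8 groups, and the mean blast effect by limma 3.58.1 (voom, title number as block). These joint fits used genes in all 4 tables. The fits were tested on simulated data. DESeq2 1.42.0, other scalings, filters and leaving out libraries were alternatives; the fits without the libraries that stand apart and the test of title numbers were chosen after seeing the data.

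The 5 genes and all lists were chosen with earlier results of these data known. The lists' genes named are those with the smallest p in each direction, region and list, printed where the unadjusted p was under 0.05 and the list bears on cell division; the closest genes are the 5 with the highest r on log2 CPM (prior count 2) among genes with a mean count of 10 or more. Partners, copies, neighbours and region genes were looked up by name, after values had been seen. Of the listed names, 9 were not analysed here. A gene close to Asf1b and a gene looked up for its region are not reported here.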

Additional observations from a re-analysis of the deposited data

Results flagged for a closer look

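Of 40 groups of 5 libraries (5 genes, 4 regions, blast and sham), 3 had a library far from the other 4 by Dixon's criterion, which chance alone meets in about 1 in 20 groups. Asf1b in blast library 8 of the anterior cortex was at 2.44 CPM, where the other 4 blast libraries were at 0.375 to 0.732 CPM. This library has the fewest genes with a count in its region (16577). Asf1b in sham library 14 of the cerebellum was at 2.33 CPM, where the other 4 were at 0.975 to 1.18 CPM. Top2a in blast library 4 of the anterior cortex was at 3.23 CPM, where the other 4 were at 0.723 to 1.33 CPM, and its log2 fold change there was -1.32 without that library.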

How the results depend on the processing

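Values below are log2 differences where no other quantity is named. Blast over sham in the cerebellum for Aurkb was 1.18 by DESeq2 (adjusted p = 0.00228, called) as by edgeR, and 1.03 to 1.33 with 1 library left out. With 1 library left out, Asf1b ran from -1.58 to -0.88 in the hippocampus, -1.60 to -0.60 in the amygdala, -2.30 to -1.30 in the anterior cortex (-2.30 without blast 8) and -1.34 to -0.64 in the cerebellum. Aurkb in the amygdala ran from -0.30 to 0.12 and Mki67 from -0.13 to 0.13, both changing sign, the first without sham 33 and the second without blast 22 (0.07) or the unnumbered sham library. Mki67 in the anterior cortex became 0.020 without the 4 libraries that stand apart. The mean over regions changed sign for Aurkb without 22 (-0.0062 to 0.34) and Mki67 without 14 (-0.0042 to 0.13), and for Asf1b ran from -1.79 to -1.13, called without the libraries numbered as Hip_666 (-1.79) and without 14 (-1.51). Between sham regions, hippocampus minus amygdala for Top2a ran from -0.092 to 0.38, hippocampus minus cerebellum for Asf1b from -0.093 to 0.66, and amygdala minus anterior cortex for Mki67 from -0.22 to 0.28 (-0.11 with the replicate block). The adjusted p of any difference of Asf1b between sham regions was 0.00616 to 0.142 with 1 number left out and 0.0591 with the replicate block. As the labels do not tie a number to an animal, the numbers were not taken as pairs. An r over 0.1 was more frequent in same-numbered pairs of libraries (12 of 30 in blast and 10 of 27 in sham) than in differently numbered ones (13 of 120 and 14 of 123). A library's highest r among the 5 libraries of another region was with its own number in 36 of 60 blast and 22 of 54 sham comparisons. This is a hint from the data and not the design. If numbers do mark animals, the main tests between regions do not allow for it, while the fits with the replicate block do. Genes called, 0 by edgeR in each region, were 1, 20 and 5 by DESeq2 in hippocampus, amygdala and cerebellum, 2 in the amygdala with no filter, and 34 and 2 in the anterior cortex in one model of all 40 libraries and without the libraries that stand apart. With 1 library left out they were 0 to 1, 0 to 2 and 0 to 1 in hippocampus, amygdala and cerebellum and 0 in the anterior cortex. For the mean effect they were 2 without the replicate block (1 with it) and 0 to 30 with 1 number left out. The test of title numbers, 209 genes, gave 72, 76, 152 and 82 without hippocampus, amygdala, anterior cortex and cerebellum. Within single regions r turned negative for Dnai1 (-0.18) and Zbtb7c (-0.016) in the amygdala and for Mpp7 (-0.81), Zbtb20 (-0.036) and Slc35a3 (-0.20) in the cerebellum. The cause of these changes was not tested. Asf1b, Top2a in 2 regions and Cdk1 are limited by counts under 60, often under 20, a library.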
